A study of Mus musculus with 16 samples.

Results

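H3K27ac was examined at Ciita and at 5 genes of the MHC class II pathway, Cd74, H2-Aa, H2-Ab1, H2-Eb1 and H2-DMa. Peaks of the 4 conditions that shared at least 1 bp were merged into 55218 regions, and a region was taken when it lay within 50 kb of any annotated start site of these 6 genes. This rule gave 69 regions. On chromosome 16, 19 regions lay near Ciita. On chromosome 18, 9 regions lay near Cd74. On chromosome 17, 12 regions lay near H2-DMa, and 29 lay within reach of H2-Ab1, H2-Aa or H2-Eb1. These 3 genes stand so close together that 25 regions counted for more than 1 of them. The nearest protein-coding start site belonged to a member for 29 of the 69 regions, and to another gene for the other 40.

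The data are ChIP-seq of H3K27ac, a histone acetylation found at active promoters and enhancers, in primary bone marrow-derived macrophages (BMDMs). The cells came from the marrow of C57Bl6 mice aged 8 to 12 weeks and were differentiated in culture in DMEM with 20% FBS and LCCM. BMDMs were left untreated (Control), treated with 100 ng/mL interferon gamma for 1 h (IFNγ), treated with 20 µM of the PARP inhibitor PJ34 (PJ34), or given both (IFNγ+PJ34), with PJ34 added 1 h before IFNγ. Each condition had 2 ChIP samples and 2 input samples, but the deposited result is 1 peak list per condition. Per the methods of the study a list keeps the peaks called in both replicates. Each list is filed with the first ChIP replicate, and whether its values come from 1 replicate or both is not stated. There is therefore no spread between replicates, no p-value, and every interval given here is a 95% interval for counting error only.

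Ciita encodes the transactivator on which MHC class II transcription depends. It does not bind DNA itself, and is recruited to class II promoters by RFX, CREB and NF-Y, which sit on neighbouring X and Y boxes. In macrophages IFNγ switches Ciita on, and the class II genes follow later. H2-Aa and H2-Ab1 encode the α and β chains of I-A, H2-Eb1 the β chain of I-E, Cd74 the invariant chain that escorts class II molecules, and H2-DMa a chain of the peptide exchanger H2-M.

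Sequences are shown for the Ciita elements that were higher with IFNγ, 2 class II promoters and a distal class II region that was lower with IFNγ+PJ34. They mark places whose values are given below, and a link between sequence and acetylation was not tested. They are in mm10, 5′ to 3′, and capitals mark matches on either strand to CCAAT (Y box), TGACG (part of a CRE), GCAACNG (X box), CACGTG (E box) or an IRF element. The first 2 are centred on summits of the IFNγ list inside Ciita, chr16:10486537-10486687 and chr16:10487229-10487379, plus strand. The next 2 are the 150 bases before the RefSeq start (GRCm38.p6) of H2-Aa, chr17:34287824-34287973, minus strand, and of H2-Eb1, chr17:34305717-34305866, plus strand. The last is centred on the Control summit of a region downstream of H2-Eb1, chr17:34347893-34348043, plus strand.
Ciita element A: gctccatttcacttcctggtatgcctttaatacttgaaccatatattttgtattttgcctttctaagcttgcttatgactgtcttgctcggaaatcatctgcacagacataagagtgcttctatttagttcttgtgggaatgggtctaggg
Ciita element B: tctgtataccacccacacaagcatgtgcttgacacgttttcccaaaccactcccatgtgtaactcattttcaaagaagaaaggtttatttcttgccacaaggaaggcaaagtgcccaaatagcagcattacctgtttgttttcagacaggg
H2-Aa promoter: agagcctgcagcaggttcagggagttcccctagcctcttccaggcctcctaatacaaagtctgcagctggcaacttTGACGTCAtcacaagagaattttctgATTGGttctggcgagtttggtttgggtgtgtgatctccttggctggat
H2-Eb1 promoter: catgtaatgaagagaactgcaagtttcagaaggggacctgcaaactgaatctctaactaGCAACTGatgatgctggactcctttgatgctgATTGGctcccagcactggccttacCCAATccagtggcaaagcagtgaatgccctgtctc
H2-Eb1 downstream region: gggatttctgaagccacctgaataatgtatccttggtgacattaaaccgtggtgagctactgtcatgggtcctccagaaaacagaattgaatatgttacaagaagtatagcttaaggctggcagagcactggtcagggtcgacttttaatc

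The printed windows of the Ciita elements and of the downstream region held none of these matches, which says only that the letters are not in these windows. In windows of 300 bases on the same Ciita summits, X box letters lay at 10486737, inside element A, and CCAAT at 10487402, inside the region of element B. Such windows held CCAAT in 8 of the 19 Ciita regions and in 30% of all 55218 regions. The X box letters were in 3 of the 19 and in 8.96% of all regions. A match is a description and not a bound site. In the 250 bases before the start, CCAAT was present in 8 of the 9 promoters that the table holds for 8 class II genes, all but 1 promoter of H2-DMa, against 33.8% of all 32851 promoters. Both H2-DMa promoters searched lie inside the broad Brd2 region described below. Its starts at 34135628 and 34135654 on chromosome 17 were not among those searched. The X box letters were in 2 of the 9, H2-Eb1 and H2-Eb2 (10.2% of all promoters), and TGACG in 1, H2-Aa (17.8%). The X box search took only the exact letters GCAACNG, so a promoter without them may still hold an X box. In H2-Aa, gcaactt, which differs in its last letter, stands directly before the TGACG match. None held the E box (6.02%) or the IRF element (2.98%). In H2-Aa, the CCAAT match (read as ATTGG on this strand) began 48 bases before the start, and a pair of overlapping TGACG matches on opposite strands began 74 and 71 bases before it. In H2-Eb1, the X box letters began 91 bases before the start and were followed by CCAAT matches 59 and 35 bases before it. The table held 3 of the 6 members; promoters of Ciita, H2-Ab1 and Cd74 are not shown.

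2 measures are used for a peak. Fold enrichment is the deposited ratio of ChIP signal at the summit to the local background from input. The summit level is the number of ChIP fragments over the summit, recovered as whole numbers from each peak's fold enrichment and p-value, divided by the genome-wide number of ChIP fragments per base in that list (6.01 in Control, 5.68 with IFNγ, 6.9 with PJ34 and 5.42 with IFNγ+PJ34). The first depends on local input, the second does not. Differences between conditions are log2 values minus the median over all regions found in both lists, which was -0.36 for IFNγ minus Control, -0.18 for PJ34 minus Control, 0.14 for IFNγ+PJ34 minus IFNγ and -0.07 for IFNγ+PJ34 minus PJ34 in fold enrichment, and -0.45, -0.23, 0.28 and 0.04 in summit level. After this centring, the start sites of all protein-coding genes had median differences in fold enrichment of -0.05, 0.06, -0.20 and -0.30, in the same order. Start sites as a whole were thus somewhat lower in IFNγ+PJ34. As a check of cell type, 10 of 10 macrophage markers, Spi1 and Csf1r among them, had a peak within 1 kb of a start site in every list, though 4 of them were 2-fold or more lower in IFNγ than in Control (6.97% of all genes with a start-site peak in both lists), and none of the 4 T cell markers or the 4 fibroblast or epithelial markers had one. Of 4 B cell markers only Ms4a1 had a peak. Of 4 dendritic cell markers, Flt3 had none, Zbtb46 and Xcr1 had one in every list and Clec9a in Control and IFNγ+PJ34. Clec9a fold enrichment was 13.9 in Control and 29.6 in IFNγ+PJ34, with summit levels of 33.6 and 39.7. Its centred difference between these 2 lists was 1.36 in fold enrichment and 0.48 in level. Xcr1 fold enrichment was 17.2 in Control, 2.84 with IFNγ, 9.72 with PJ34 and 19.2 with IFNγ+PJ34. Dendritic cells also carry class II, and the part of such cells in the results was not tested. Fewer cells carrying the mark and less of it per cell cannot be told apart in bulk samples.

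Inside Ciita, H3K27ac was higher with IFNγ at a pair of neighbouring elements, and was higher with IFNγ in the presence of PJ34 as well. Both lie in an intron, upstream of the annotated start at 10488279 on chromosome 16, with summits 1.67 kb (element A) and 0.975 kb (element B) before it. Element A (chr16:10486424-10486899) had a fold enrichment of 5.1 in Control, 14.8 with IFNγ, 6.81 with PJ34 and 14.7 with IFNγ+PJ34. These rest on 46, 104, 55 and 106 fragments, with intervals of 3.77 to 6.76, 12.1 to 17.9, 5.17 to 8.81 and 12.1 to 17.7. The lists with IFNγ thus stood apart from the lists without it, and within each pair the intervals overlapped. The centred difference was 1.90 (1.40 to 2.40) for IFNγ minus Control and 1.18 (0.71 to 1.65) for IFNγ+PJ34 minus PJ34, while IFNγ+PJ34 minus IFNγ was -0.15 (-0.54 to 0.24).

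Element B is a summit of a longer region (chr16:10486938-10490998) that covers 3 annotated Ciita starts, and the highest-scoring summit of that region in every list but Control. Taken at that summit, which the 4 lists place within 200 bp of each other, fold enrichment was 7.24 in Control, 21.4 with IFNγ, 8.14 with PJ34 and 16.1 with IFNγ+PJ34. The summit levels there were 14.1, 26.6, 12.9 and 22.1 times the genome-wide level. Both lists with IFNγ were again above both without it. Here IFNγ+PJ34 was below IFNγ, with a centred difference in level of -0.54 (-0.89 to -0.20). Against Control, the IFNγ difference in level was 1.36 (0.97 to 1.74). At a further summit of the region, near the starts at 10489781 and 10489783, fold enrichment was 9.86 in Control, 7.03 in IFNγ and 4.51 in PJ34, with summit levels of 11.8, 8.62 and 5.22. IFNγ and Control did not differ there beyond counting error (-0.01, -0.53 to 0.52, in level), and in IFNγ+PJ34 this stretch was part of a single 3150 bp peak whose summit is element B.

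**Figure D1:**
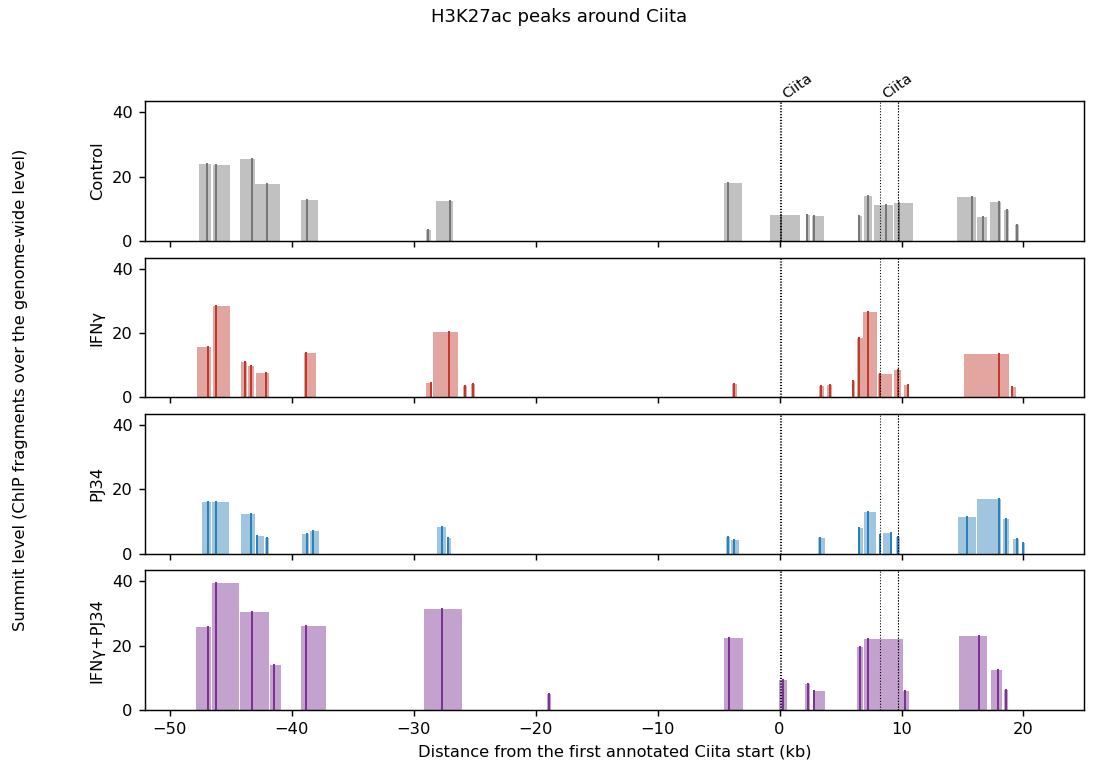
Peaks around Ciita in the 4 lists, by distance from the first annotated start in kb (dotted lines, annotated starts). Bar width is the peak, bar height its summit level (ChIP fragments over the genome-wide level), and the thin line its summit; at element B, about 7 kb after the first start, the level was 14.1 in Control, 26.6 with IFNγ, 12.9 with PJ34 and 22.1 with IFNγ+PJ34.

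The most upstream Ciita start gave another pattern. A peak over the start at 10480059 was present in Control (fold enrichment 6.86, 49 fragments) and IFNγ+PJ34 (5.36, 50 fragments) and in neither IFNγ nor PJ34. The same presence held for a small intronic region 2.16 kb after the second start (6.86 in Control and 6.26 in IFNγ+PJ34). A region 4.18 kb upstream of the first start (chr16:10475474-10477030) was found in all 4 lists, at 8.32 in Control, 2.53 with IFNγ, 4.39 with PJ34 and 16.7 with IFNγ+PJ34. It was thus lower with either treatment alone and highest with both, although the IFNγ peak was 421 bp wide with its summit elsewhere in the region. Local background was 9 in Control and 2.83 in IFNγ+PJ34. In summit level the values were 18.1, 4.22, 5.07 and 22.3 in the same order, so Control and IFNγ+PJ34 differed less in level than in fold enrichment. The centred differences in fold enrichment were -1.35 (-1.99 to -0.72) for IFNγ minus Control and 2.59 (1.96 to 3.22) for IFNγ+PJ34 minus IFNγ.

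Further upstream, 8 of the 19 regions near Ciita lay nearer to Tvp23a, a gene of vesicle transport. The intergenic region 27.7 kb before the first Ciita start (chr16:10450904-10454002) had fold enrichments of 8.21 in Control, 16.2 with IFNγ, 6.01 with PJ34 and 20.9 with IFNγ+PJ34, so it was higher in both lists with IFNγ, by 1.35 (0.92 to 1.77) over Control and 1.87 (1.43 to 2.30) over PJ34. The summits of Control and IFNγ lay together there, and those of PJ34 and IFNγ+PJ34 at another place in the region. A Tvp23a intron region 38.8 kb before the start was highest with both agents, at 7.39, 4.67, 3.63 and 19.0 in the same order. Its local background, in fragments scaled to input, was 7, 11 and 9 in the first 3 lists against 2.94 in IFNγ+PJ34. In summit level its IFNγ+PJ34 minus IFNγ difference was 0.63 (0.24 to 1.03) in place of 1.89 (1.49 to 2.28) in fold enrichment.

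4 regions near Ciita were found in the IFNγ list alone, 2 between 25.1 and 25.8 kb upstream and 2 inside the gene, 4 kb after the second start and 2.2 kb before the third. Their fold enrichments were 3.01, 3.57, 3.15 and 4.14 on 20 to 28 fragments, which put them at or below the percentile 29.9 of scores in that list. Of 21924 protein-coding genes, 40 had as many or more regions found in IFNγ alone within 50 kb. Of the 15 Ciita regions in IFNγ, only these 4 were absent from Control, or 26.7% (7.79% to 55.1%). That interval held the 18.2% of all regions. Accepting a peak up to 1 kb away cut the count in IFNγ and not Control, over all members, from 6 to 1.

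Across the 10 Ciita regions found in both lists, IFNγ+PJ34 was above PJ34 in 10, with a median difference of 1.19, and 7 of the 10 were 2-fold or more higher, where the share over all regions was 15.9%. Against IFNγ alone, 8 of 10 were above, with a median of 0.33, and 2 were 2-fold or more higher (12% of all regions). For IFNγ minus Control the 11 shared regions split into 5 above and 6 below, with a median of -0.16 in fold enrichment, and into 6 above and 5 below, with a median of 0.44, in summit level, so the median had no stable sign. Of these, 3 were 2-fold or more higher (8.93% of all regions, and 7.6% in summit level, where again 3 of 11 were) and 1 was 2-fold or more lower (9.2% of all regions). For PJ34 minus Control, none of the 11 was 2-fold or more higher (5.24% of all regions) and 1 was 2-fold or more lower (7.94% of all regions).

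At the starts of H2-Ab1 and H2-Aa, H3K27ac with IFNγ alone did not differ from Control beyond counting error after 1 h, and the lowest values were those with IFNγ+PJ34. At the H2-Ab1 start (chr17:34261757-34265738), fold enrichment was 11.4 in Control, 9.3 with IFNγ, 21.4 with PJ34 and 8.03 with IFNγ+PJ34, and the summit levels were 20, 16.2, 25.7 and 10.5. The centred difference between IFNγ and Control was 0.06 (-0.33 to 0.46). The PJ34 summit lay 1.42 kb after the start, inside the gene, and not at the start as in the other 3 lists, and PJ34 minus Control was 1.08 (0.75 to 1.42) in fold enrichment and 0.60 (0.26 to 0.93) in summit level. IFNγ+PJ34 minus PJ34 was -1.35 (-1.78 to -0.92), and against IFNγ it was -0.35 (-0.83 to 0.13) in fold enrichment and -0.90 (-1.38 to -0.43) in summit level. Of 10658 genes with a start-site peak in both lists, 1598 were 2-fold or more lower in IFNγ+PJ34 than PJ34, and 547 higher.

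At the H2-Aa start (chr17:34286454-34287878), fold enrichment was 12.1 in Control, 10.9 with IFNγ, 7.66 with PJ34 and 5.98 with IFNγ+PJ34, on 111, 76, 84 and 42 fragments. The intervals for Control (9.98 to 14.5) and IFNγ (8.61 to 13.6) overlapped, and that for IFNγ+PJ34 (4.39 to 8.0) lay below both. IFNγ+PJ34 minus IFNγ was -1.0 (-1.55 to -0.46) in fold enrichment and -1.07 (-1.61 to -0.52) in summit level, so this difference was as large without the local input. PJ34 minus Control was -0.48 (-0.89 to -0.07) in fold enrichment and -0.37 (-0.78 to 0.04) in summit level. IFNγ+PJ34 minus PJ34 was -0.29 (-0.82 to 0.25) in fold enrichment, within counting error, and -0.69 (-1.23 to -0.16) in summit level. The IFNγ summit lay further into the gene than the summits of the other lists.

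H2-Eb1 carried 2 regions at its start. The one at the start (chr17:34305866-34308158) was found at 7.25 in Control, 6.52 in IFNγ and 5.35 in PJ34, and had no peak in IFNγ+PJ34. Only its IFNγ peak covered the annotated start itself, and the Control and PJ34 peaks did not. The one just upstream (chr17:34303814-34305760), ending 107 bp before the start, stood at 5.49, 3.82, 11.3 and 4.42 in the order Control, IFNγ, PJ34 and IFNγ+PJ34. The higher fold enrichment with PJ34 went with a local background of 5.74 against 11 in Control. In summit level Control (14.3) and PJ34 (15.1) did not differ beyond counting error, with a centred difference of 0.31 (-0.10 to 0.72), and IFNγ (6.51) and IFNγ+PJ34 (5.9) were lower.

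**Figure D2:**
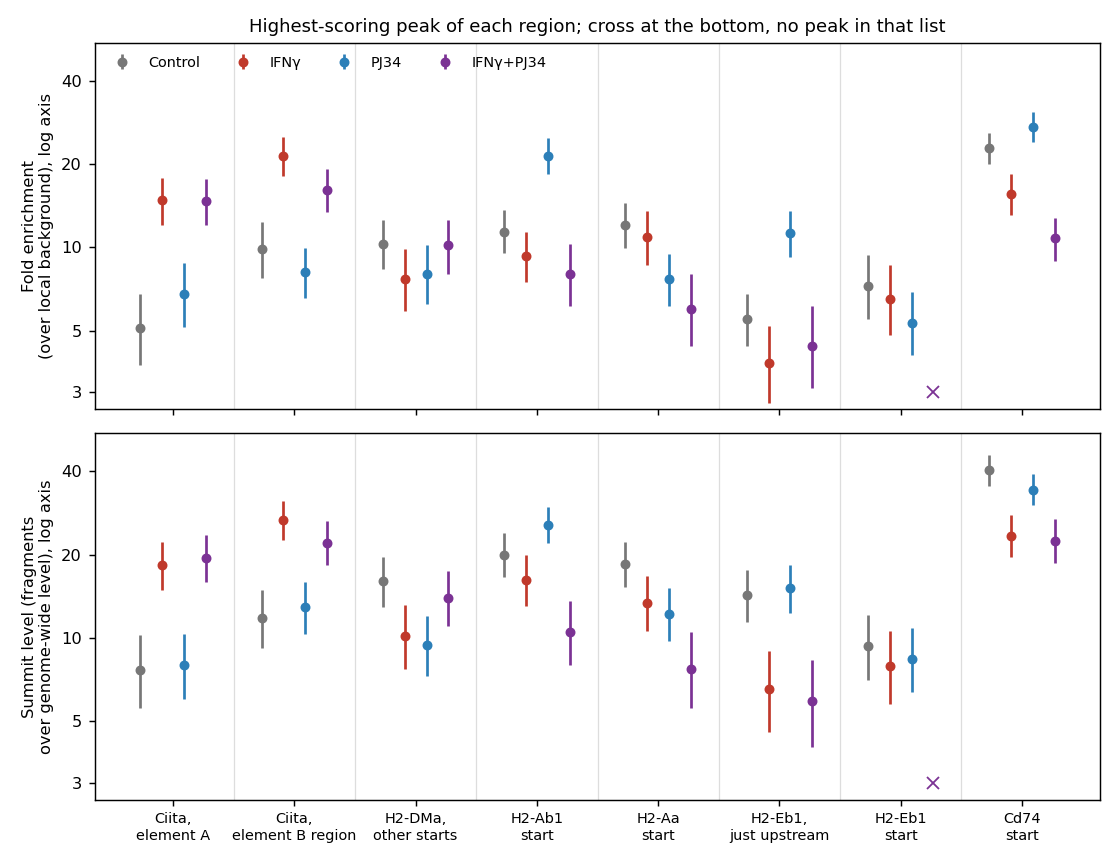
Fold enrichment (top) and summit level (bottom), both on log axes, at Ciita element A and at the start regions of the members, with 95% counting intervals; a cross marks a list with no peak, and in the element B region the Control point is its highest-scoring summit, near the downstream starts. At H2-Aa fold enrichment was 12.1 in Control and 5.98 in IFNγ+PJ34, while at Ciita element A it was 5.1 in Control and 14.8 in IFNγ and 14.7 in IFNγ+PJ34.

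The largest differences between IFNγ+PJ34 and IFNγ in this cluster lay outside the starts. The region 42.1 kb downstream of H2-Eb1 (chr17:34346232-34349543), which is nearer to Btnl2, had fold enrichments of 14.5 in Control, 22.9 with IFNγ, 29.3 with PJ34 and 9.2 with IFNγ+PJ34. Its summit level was 34.9, 34.1 and 39.4 in the first 3 lists and 12.5 in IFNγ+PJ34, so the first 3 differed less in level than in fold enrichment. IFNγ+PJ34 minus IFNγ was -1.46 (-1.85 to -1.06) in fold enrichment and -1.73 (-2.12 to -1.33) in summit level. A region in an intron of H2-Ob, 12.6 kb before H2-Ab1 (chr17:34248981-34251824), had levels of 15.3, 14.6 and 13.9 at one summit in the first 3 lists. IFNγ+PJ34 had no peak at that summit, and a 442 bp peak with a level of 5.16 about 1 kb away. At the shared summit the fold enrichment of 5.42 in Control against 11.6 in IFNγ went with a local background of 12 against 4.07, and the IFNγ minus Control difference of 1.46 (1.04 to 1.89) became 0.38 (-0.05 to 0.81) in summit level.

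Over the 29 regions within reach of H2-Ab1, H2-Aa and H2-Eb1, Control held 21, IFNγ 18, PJ34 24 and IFNγ+PJ34 12. As shares these were 72.4%, 62.1%, 82.8% and 41.4%, against 69.3%, 57.4%, 65.2% and 61.9% of all regions. Of the 18 found in IFNγ, 7 were absent from IFNγ+PJ34, or 38.9% (17.3% to 64.3%), against 23.2% of all regions. Of the 12 found in IFNγ+PJ34, 1 was absent from IFNγ, or 8.33% (0.211% to 38.5%), against 28.9% of all regions. Both intervals held the share of all regions. Among the 11 shared by IFNγ and IFNγ+PJ34, 10 were lower in IFNγ+PJ34, with a median of -0.57. In fold enrichment 4 of these 11 were 2-fold or more lower, against 9.62% of all regions, and in summit level 4 of 11 were, against 7.62%. Against PJ34, 10 of 12 were lower and 5 were 2-fold or more lower (11.2% of all regions). For IFNγ minus Control the median of the 16 shared regions was 0.20 in fold enrichment and 0.15 in summit level, and for PJ34 minus Control the median of 17 was 0.19 and 0.02. In fold enrichment 5 of these 17 were 2-fold or more higher with PJ34 than in Control, beside the 5.24% of all regions given above, and in summit level none was (2.9% of all regions). These regions share genes and lists with each other and are not independent.

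**Figure D3:**
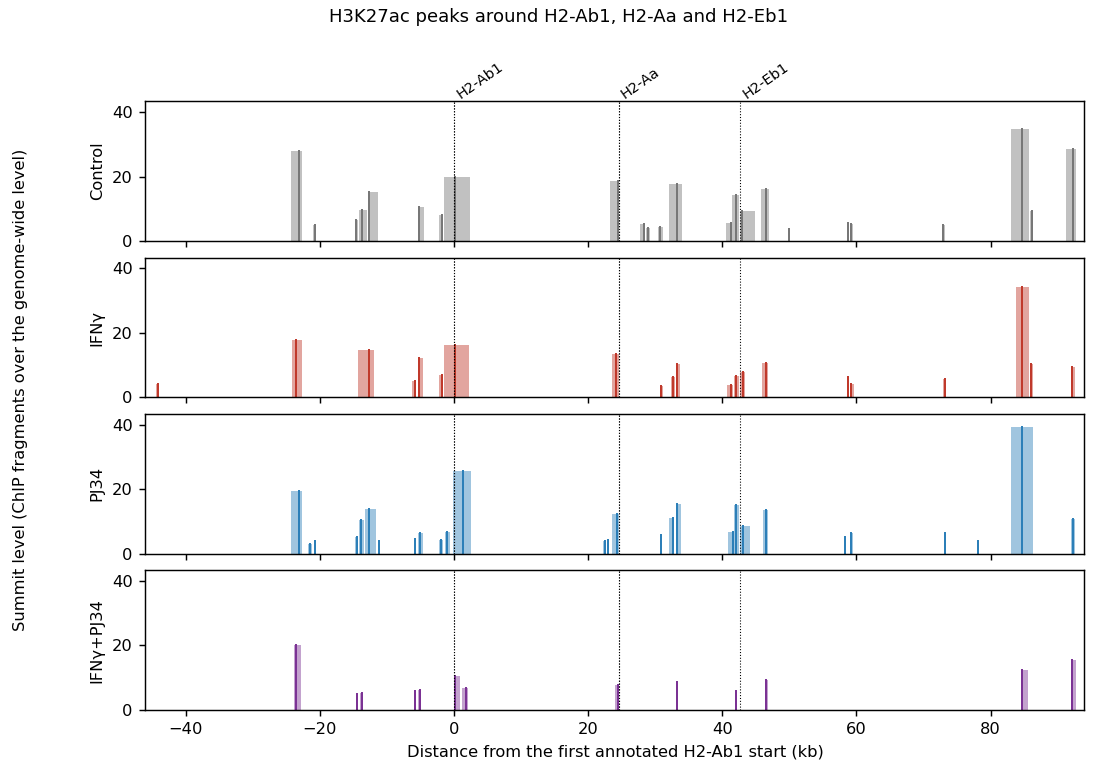
Peaks around H2-Ab1, H2-Aa and H2-Eb1 in the 4 lists, by distance from the first annotated H2-Ab1 start in kb (dotted lines, annotated starts), drawn as in the Ciita plot. Of 29 regions, the list with both agents held 12 (41.4%, against 61.9% of all regions). The others held 18 to 24 (62.1% to 82.8%, against 57.4% to 69.3% of all regions). The tall region about 85 kb from H2-Ab1 had a level of 12.5 in IFNγ+PJ34 against 34.1 to 39.4 in the other lists.

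At the start of Cd74 the 2 lists with IFNγ were lower than the 2 without it, most clearly with PJ34. The start carried a 4252 bp peak in Control, with fold enrichments of 22.8 in Control, 15.6 with IFNγ, 27.3 with PJ34 and 10.8 with IFNγ+PJ34. In summit level the values were 40.4, 23.4, 34.4 and 22.5, so the 2 lists with IFNγ were close together. IFNγ minus Control was -0.19 (-0.49 to 0.12) in fold enrichment and -0.34 (-0.65 to -0.04) in level, and IFNγ+PJ34 minus IFNγ was -0.34 (-0.69 to 0.02), against -0.67 (-1.03 to -0.32) in fold enrichment. IFNγ+PJ34 minus PJ34 was -1.27 (-1.59 to -0.96) in fold enrichment and -0.65 (-0.97 to -0.34) in level. A smaller peak just before the start followed the same order, at levels of 17, 9.86, 16.5 and 7.38. There IFNγ minus Control was within counting error in level (-0.34, -0.81 to 0.13), and IFNγ+PJ34 minus PJ34 was -1.20 (-1.72 to -0.68). The strongest region of the locus, 29.4 kb upstream, covers the promoter of Rps14, which encodes a ribosomal protein. It stood at 66.2, 38, 55.1 and 23.7 in fold enrichment and 92.5, 56.8, 77.4 and 58.3 in level.

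**Figure D4:**
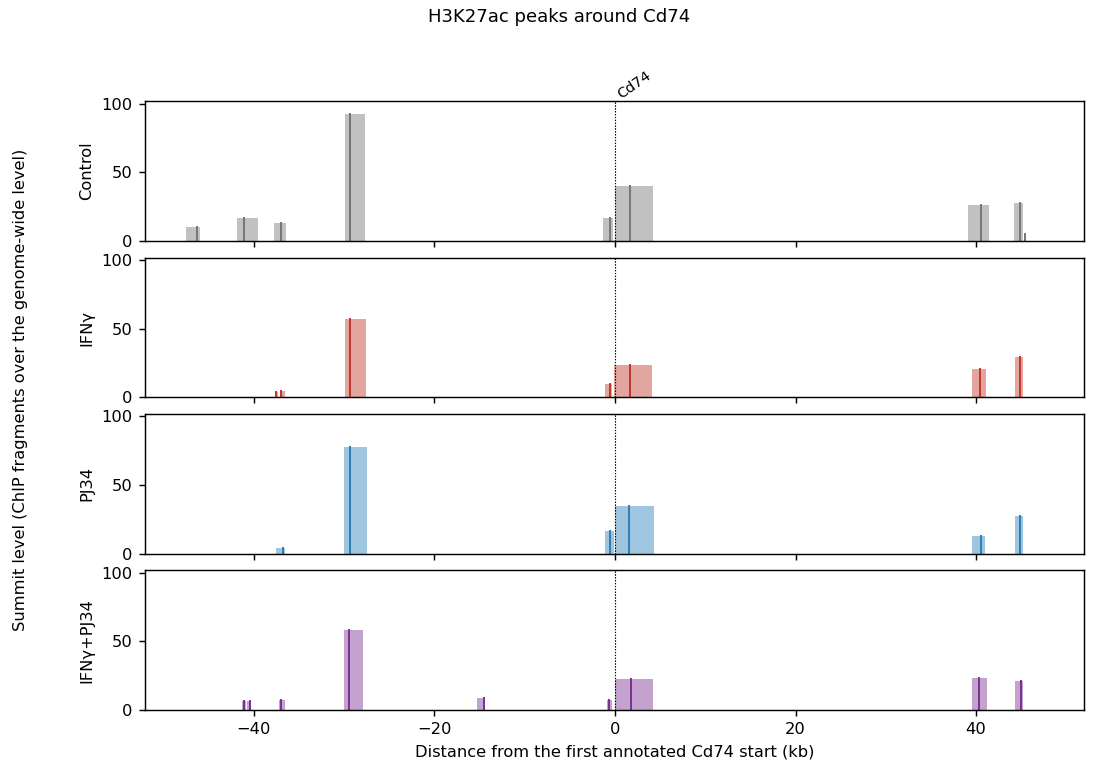
Peaks around Cd74 in the 4 lists, by distance from the first annotated Cd74 start in kb (dotted line), drawn as in the Ciita plot. The peak over the start had a level of 40.4 in Control, 23.4 with IFNγ, 34.4 with PJ34 and 22.5 with IFNγ+PJ34, and the tallest peak, 29.4 kb upstream, is at the Rps14 promoter.

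At H2-DMa the differences between the lists were small. Its first annotated start lies inside a broad region of the promoter of Brd2, a bromodomain protein, where fold enrichment was 61.8 in Control, 53.5 with IFNγ, 83.5 with PJ34 and 63.9 with IFNγ+PJ34, and this peak cannot be assigned to H2-DMa. The region at its other starts (chr17:34135579-34137067) stood at 10.3, 7.71, 8.01 and 10.2, with all 4 intervals overlapping. In summit level PJ34 was below Control, by -0.53 (-0.98 to -0.07). IFNγ minus Control was -0.06 (-0.53 to 0.41) and IFNγ+PJ34 minus IFNγ was 0.26 (-0.23 to 0.75).

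Of all 69 regions, Control held 51 (73.9%), IFNγ 45 (65.2%), PJ34 49 (71%) and IFNγ+PJ34 41 (59.4%). The shares over all regions were 69.3%, 57.4%, 65.2% and 61.9% in the same order. All 4 lists held 32 of the 69 (46.4%, against 38.9% of all regions). The 24 found in a single list were weak, with fold enrichments of 2.51 to 7.96 on 20 to 62 fragments. Of the 45 in IFNγ, 6 were absent from Control (13.3%, 5.05% to 26.8%), where the share over all regions was 18.2%. Of the 51 in Control, 12 were absent from IFNγ (23.5%, 12.8% to 37.5%), against 32.3% of all regions. Of the 49 in PJ34, 9 were absent from Control (18.4%, 8.76% to 32%), against 21.3%. Of the 45 in IFNγ, 12 were absent from IFNγ+PJ34 (26.7%, 14.6% to 41.9%), against 23.2%. Of the 41 in IFNγ+PJ34, 8 were absent from IFNγ (19.5%, 8.82% to 34.9%) and 7 from PJ34 (17.1%, 7.15% to 32.1%), and both shares were 28.9% over all regions. Each of these 6 background shares lay inside the members' interval, so no difference between these regions and others in how often a peak was present could be detected with this number of regions.

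The medians over all members were also close to 0. They were 0.10 over 39 regions for IFNγ minus Control, -0.08 over 40 for PJ34 minus Control, -0.03 over 33 for IFNγ+PJ34 minus IFNγ and 0.10 over 34 for IFNγ+PJ34 minus PJ34, where the median over all regions is 0 by construction. For IFNγ minus Control, 6 of 39 were 2-fold or more higher in fold enrichment (8.93% of all regions) and 3 lower (9.2%), and in summit level 3 were higher (7.6%) and 3 lower (7.43%). For PJ34 minus Control, 5 of 40 were higher (5.24%) and 5 lower (7.94%), and in summit level none was higher (2.9%) and 3 were lower (6.8%). For IFNγ+PJ34 minus IFNγ, 3 of 33 were higher (12%) and 4 lower (9.62%), with the same 2 counts in summit level (11% and 7.62%). For IFNγ+PJ34 minus PJ34, 10 of 34 were higher, or 29.4% (15.9% of all regions), and 8 lower, or 23.5% (11.2%). In summit level these counts were 8 (16.2%) and 4 (8.41%). Of the 10, 7 were Ciita regions. The loci differed in sign: for IFNγ+PJ34 minus IFNγ the medians were 0.33 at Ciita, 0.26 at H2-DMa, -0.57 at H2-Ab1, H2-Aa and H2-Eb1, and -0.52 at Cd74, and in summit level 0.43, 0.18, -0.57 and -0.24. The difference between loci was not tested.

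**Figure D5:**
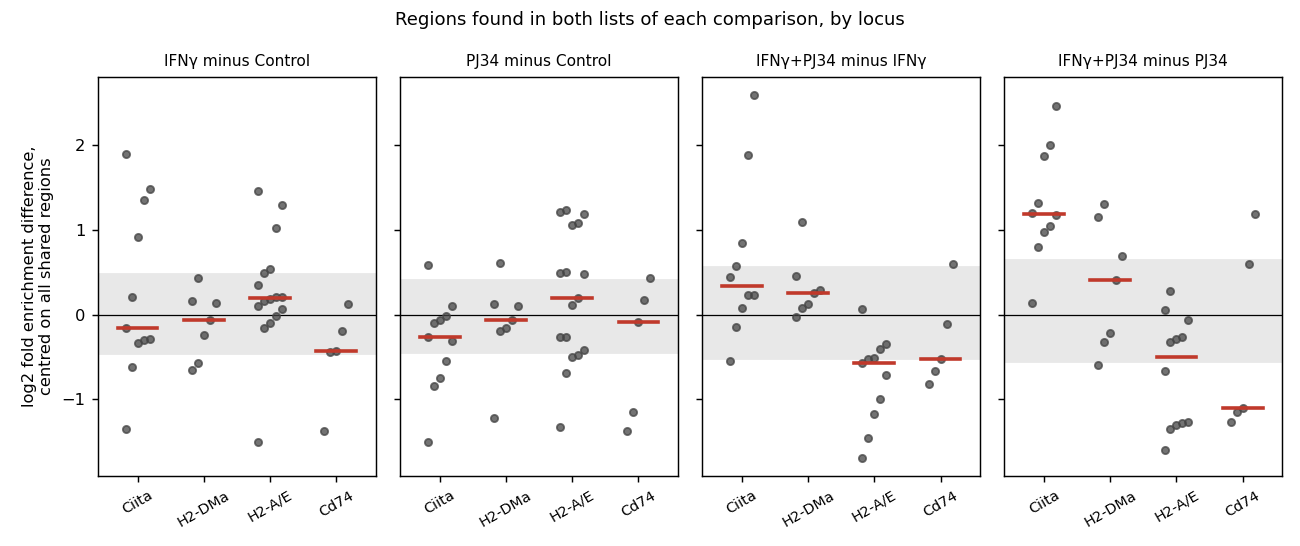
Centred log2 differences in fold enrichment of the regions found in both lists of each comparison, by locus (H2-A/E, the regions of H2-Ab1, H2-Aa and H2-Eb1). Points are regions, red lines medians, and the grey band spans the quartiles of all regions; for IFNγ+PJ34 minus PJ34 the Ciita median was 1.19 and the Cd74 median -1.11 (1.26 and -0.41 in summit level, which is not drawn).

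By rank of score, the start regions of 4 of the 6 members, Cd74, H2-Aa, H2-Ab1 and H2-Eb1, were lowest in IFNγ+PJ34. In fold enrichment centred on each list, 2 of the 6 were, Cd74 and H2-Ab1. The score percentile of H2-Ab1 was 70.6 in Control, 71 with IFNγ, 82.5 with PJ34 and 55.4 with IFNγ+PJ34, and that of H2-Aa was 70.2, 69.8, 64.6 and 43.6. Among all 11088 genes with a start-site peak in Control, 49.8% were lowest in IFNγ+PJ34 by rank, so a low rank in that list was common. By fold enrichment centred on each list by itself, 29.1% were lowest in IFNγ+PJ34. Ciita stood at percentile 61.3 in Control, 84.4 with IFNγ, 66.1 with PJ34 and 76.1 with IFNγ+PJ34.

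The 5 genes whose start-site percentiles over the 4 lists were nearest to those of Ciita were Klf9, Gbp6, Gm43302, Treml2 and Hsd3b7, at distances of 6.81 to 9.07 percentile points. Gbp6, an interferon-inducible GTPase, had 64.6, 85.4, 68 and 83.6 in the order Control, IFNγ, PJ34 and IFNγ+PJ34. The 5 nearest to H2-Ab1 were Zfp512, Pin4, Sema4c, Trp53bp1 and Cask, at distances of 2.46 to 3.83.

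Other genes of the class II pathway were counted at their start sites. Of 6 class II neighbours, H2-DMb1, H2-DMb2, H2-Oa and H2-Ob had a peak in all 4 lists, and H2-Eb2 and the pseudogene H2-Ea-ps had none. H2-DMb2, a β chain of H2-M, was highest with both agents, at 20.1 in Control, 17.3 with IFNγ, 19.1 with PJ34 and 40.5 with IFNγ+PJ34, a centred difference of 1.09 (0.81 to 1.38) from IFNγ. H2-DMb1, the other β chain, was lowest in PJ34, at 13.9, 9.19, 5.29 and 12.4. H2-Ob, a chain of the H2-M inhibitor H2-O, was lowest with both agents, at 12.7, 14.4, 12.1 and 9.64, with a difference from IFNγ of -0.72 (-1.11 to -0.33) in fold enrichment and -0.10 in level.

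Among the antigen processing genes 6 of 7 had a peak in every list, and Ifi30 was not in the gene set used. None was 2-fold or more higher with IFNγ than in Control, and 1 was lower: Lgmn, a lysosomal protease, at 62.6 in Control and 20.2 in IFNγ. March1, a ubiquitin ligase that removes class II from the surface, was lowest in PJ34 (13.1) and highest in IFNγ+PJ34 (48.6). All 7 promoter factors had peaks in every list, and none was 2-fold or more apart between IFNγ and Control. Rfxap, a subunit of RFX, was 31.3 in Control, 21.1 with IFNγ, 27.4 with PJ34 and 11.7 with IFNγ+PJ34 in fold enrichment, and 38.4, 31.7, 32.8 and 28.6 in summit level. Its IFNγ+PJ34 minus IFNγ difference was -0.99 in fold enrichment and -0.43 in level. Of 7 genes acting upstream of Ciita, all had peaks in every list, none was 2-fold or more higher in fold enrichment with IFNγ (3.93% of all genes with a start-site peak in both lists), and Usf1, Ifngr1 and Ifngr2 were 2-fold or more lower (6.97%). Usf1, an E box factor, was 72.2 in Control and 16 in IFNγ, but its difference of -1.81 in fold enrichment was -0.66 in summit level. For the receptor chains, the differences in fold enrichment and level were -1.25 and -0.43 at Ifngr1 and -1.08 and -1.21 at Ifngr2, so of these 3 genes only Ifngr2 was 2-fold lower in level as well. Jak2, a kinase of the IFNγ receptor, was lowest in IFNγ+PJ34, at 54.5, 65.7, 73.0 and 36.3. Of the 4 acetyltransferase genes none was 2-fold or more apart between IFNγ and Control, and Ep300 stood at 125.0 in Control, 77.4 with IFNγ, 81.4 with PJ34 and 56.4 with IFNγ+PJ34. In summit level Ep300 was 167, 99.3, 131 and 99.4. After centring, its IFNγ+PJ34 minus IFNγ difference was -0.60 in fold enrichment and -0.28 in level. Kat2a went the other way, with IFNγ+PJ34 minus IFNγ at 1.06 (0.68 to 1.44) in fold enrichment and 1.17 in level.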

How the data were processed

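H3K27ac ChIP-seq was analysed from 4 deposited peak lists, from a design of 8 ChIP and 8 input samples. Per the methods of the study, the authors aligned reads to mm10 with Bowtie, filtered them with Samtools and Picard, called relaxed peaks per replicate with MACS against input, and kept peaks called in both replicates. The fold enrichment (a ratio), the −log10 p-value, the −log10 q-value and the score (10 to 1000, linear in −log10 p) are the values the authors deposited. Each list is filed with the first ChIP replicate of its condition. Whether the pileup behind them came from 1 replicate or both is not given in the sources used here.

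Peaks sharing at least 1 bp were merged into regions and assigned to start sites of GENCODE M21 (basic set, same build). The highest-scoring peak stood for a region in each list. A region was called higher or lower at a 2-fold centred difference. Named genes were the 6 members, with every region at a start site (peak within 1 kb) and their highest-scoring region, member regions whose presence differed, and from the other lists those with the largest differences. The upstream Ciita regions found in all lists, Ms4a1, the dendritic cell markers, the regions of H2-Ob, Rps14 and Btnl2 and the H2-Eb1 downstream region were named after their values were seen. A gene of the upstream list and a motif are not reported here. The members and lists were chosen with earlier results of these data known.

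After the data were seen, ChIP fragments at each summit were recovered: (pileup + 1)/(background + 1) equals the fold enrichment and a Poisson tail gives the p-value. Pileups were whole multiples of 0.7544 in Control, 0.6964 with IFNγ, 0.7206 with PJ34 and 0.5214 with IFNγ+PJ34, within 0.03 fragments. At these scales, all but 2, 0, 0 and 162 peaks gave whole fragments, against 19.3% to 22.8% of peaks at other scales. The method was tested on simulated data. Intervals for fold enrichment use exact Poisson limits on fragments, those for differences the counting error of both fragment counts, and shares Clopper-Pearson limits. PCR duplicates and replicate spread are not covered. Python 3.11.15, NumPy 2.4.6, SciPy 1.17.1, pandas 2.3.3 and pysam 0.24.0 were used.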

Additional observations from a re-analysis of the deposited data

How the results depend on the processing

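Of 64 recomputed values for 10 results, 29 changed little, 29 counts moved by over 1.5 times and 6 medians changed sign. In the order IFNγ not Control (6), Control not IFNγ (12), PJ34 not Control (9), IFNγ not IFNγ+PJ34 (12), IFNγ+PJ34 not IFNγ (8) and IFNγ+PJ34 not PJ34 (7), the counts were 3, 5, 4, 6, 2 and 2 with a distance of 10 kb, and 3, 5, 5, 6, 2 and 2 where the nearest start had to be a member's. Keeping the higher-scoring 50% of each list gave 1, 6, 1, 6, 2 and 3, and accepting a peak up to 1 kb away gave 1, 5, 1, 3, 5 and 5. Requiring 50% of a peak to be covered gave 7, 19, 9, 22, 12 and 12, and 100 kb gave 10, 23, 13, 18, 10 and 11. Fewer or more regions enter under each by construction.

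The median over all members had no stable sign. Without centring it was -0.26 for IFNγ minus Control and 0.11 for IFNγ+PJ34 minus IFNγ. With 100 kb it was 0.10 for PJ34 minus Control and -0.18 for IFNγ+PJ34 minus PJ34. Without the Ciita locus, an alternative chosen after seeing the data, these 2 were 0.10 and -0.30, and IFNγ+PJ34 minus IFNγ was -0.41. With summit level, also added later, the 4 medians kept their sign.

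No paired analysis was possible because the 2 replicates of a condition share 1 list, so fits leaving out a replicate were not run. Presence in a list depends on a threshold: the regions found in 1 list rest on 20 to 62 fragments.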
